A study of Mus musculus with 4 samples.

Results

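Tnfaip3 is the mouse gene for A20, a ubiquitin-editing enzyme. A stretch of chromosome 10 around it was examined for sites cut by DNase I in CD8+ T cells with and without Tcf1 and Lef1. DNase-seq marks accessible chromatin, since the enzyme cuts DNA that is not wrapped in nucleosomes. The stretch runs from 18680000 to 19060000 of chromosome 10 in the mouse build mm9, 380 kb, with Tnfaip3 at about 18.721 to 18.735 Mb. It was chosen by the calls themselves, because it holds a site listed in both wild-type libraries and in neither knockout library. Its counts are therefore a description and support nothing by themselves. The members were the 61 peaks of 4 deposited lists whose midpoints lie in the stretch. Peaks that overlapped by at least 1 bp were joined, which gave 23 regions of 38986 in all.

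The knockout cells, called DKO here, came from mice with floxed Tcf1 and Lef1 genes that also carried hCD2-Cre and a Rosa26-lsl-GFP reporter. The WT cells came from mice with the same Cre and reporter and wild-type Tcf1 and Lef1. In both genotypes Cre under the human CD2 promoter, active in lymphocytes, turned on GFP. Splenocytes were sorted as GFP+ TCRbeta+ CD62Lhi CD44lo-med CD8+ cells and held in culture with IL-7 plus IL-15 for 72 h. These cytokines maintain T cells in the absence of antigen. There were 2 libraries per genotype. The labels give neither age nor sex. Nothing in them ties a replicate to its own animal, so replicate spread may be technical only. The files hold peak positions without gene names, so the deletion of Tcf1 and Lef1 and the markers of the sorted cells were not checked here.

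A20 is one of the proteins by which NF-κB signalling limits itself. NF-κB factors, which are activated by the T cell receptor and by receptors for TNF, bind the Tnfaip3 promoter and raise its transcription. A20 then edits ubiquitin chains on the kinases and adaptors that activate NF-κB. In T cells it restrains activation and protects against some forms of cell death. Tcf1 and Lef1 are related DNA-binding proteins that help set which chromatin sites are accessible in the T lineage. In the RefSeq gene order of GRCm38.p6, Perp, a gene for a membrane protein of cell junctions, is the protein-coding neighbour below Tnfaip3. The next beyond its start is Olig3, which encodes a transcription factor of the nervous system. Tnfaip3 is read from the minus strand, so higher positions lie upstream of it, and 6 lncRNA genes or pseudogenes are annotated in that interval. No mm9 position of Olig3 was used, so how near the distal sites lie to Olig3 is not given here. Which gene a distal site acts on was not tested.

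The promoter is shown because a site near the start of the gene was the nearest to Tnfaip3 in every library. RefSeq gives 2 start windows for Tnfaip3 in GRCm38.p6, each from 250 bases before to 50 bases after a start, on the minus strand. Capitals mark matches to GGNNTTTCC on either strand, a short form of the sequence NF-κB binds. The window labelled upstream start has 2 such matches, GGAATTTCC at −24 and GGAAATCCC at −12 from the start site, and they do not overlap. The other window has none. Coordinates of the 2 starts are not given here, so which of them lies upstream is not shown. At least 1 match is found in 5.82% of the 32851 RefSeq promoter windows. CTTTGAT, a core of the sequence bound by Tcf1 and Lef1, was searched on both strands too, and its letters are in neither Tnfaip3 window. It is found in 3.73% of all promoter windows. A match describes letters and is no evidence of binding. No mm9 sequence was used, so the bases under the listed peaks were not read.
Tnfaip3 promoter, upstream start: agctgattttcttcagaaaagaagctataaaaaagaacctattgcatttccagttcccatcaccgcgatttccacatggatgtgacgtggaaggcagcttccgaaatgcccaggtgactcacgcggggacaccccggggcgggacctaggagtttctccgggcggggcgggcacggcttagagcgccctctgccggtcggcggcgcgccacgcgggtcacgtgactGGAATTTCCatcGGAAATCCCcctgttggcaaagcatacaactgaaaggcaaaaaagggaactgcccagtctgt

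Each value below comes from the authors' peak caller and describes 1 peak within its own list. The fold enrichment is the pile of DNA fragments at the summit over the local background of the same library. The pileup, the number of fragments at the summit, was solved from the deposited fold and p. Its interval is the exact 95% Poisson interval and covers counting error only. The DKO lists held 34788 and 21353 peaks for replicates 1 and 2, and the WT lists held 17521 and 11073. At the lowest background of its library, a peak was listed from 8 fragments up in both DKO libraries, from 10 in WT replicate 1 and from 9 in WT replicate 2. Both DKO libraries had peaks on chromosome Y, 55 and 57, and neither WT library had any, so sex and genotype cannot be told apart in any result below.

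All 4 libraries listed peaks around Tnfaip3, at the promoter and at sites up to 318.5 kb upstream of it. DKO replicates 1 and 2 had 20 and 15 peaks in the stretch, and WT replicates 1 and 2 had 13 each. The DKO libraries averaged 17.5 ± 3.54 peaks and the WT libraries 13 ± 0 (SD, n = 2 each), a log2 ratio of 0.43. Both DKO counts were above both WT counts. A two-sided exact permutation test of the libraries gave p = 0.33. With 2 against 2 it can give nothing smaller, so this test cannot pass 0.05 for any value here. As a share of its list, the stretch took 0.0575% in DKO replicate 1 (exact binomial 95% interval 0.0351 to 0.0888%) and 0.0702% in DKO replicate 2 (0.0393 to 0.116%). In WT replicates 1 and 2 these shares were 0.0742% (0.0395 to 0.127%) and 0.117% (0.0625 to 0.201%). The WT shares were thus the higher, with intervals that overlap those of the DKO libraries. These intervals treat peaks as independent and hold no spread between replicates. The share was lower the longer the list, and the stretch was chosen for a WT-only site. Nothing about the genotypes is therefore read from the order of the shares. With the 11073 strongest peaks of each list by p, the counts were 9 and 5 in DKO and 9 and 13 in WT, and the log2 ratio turned to -0.65.

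Of the 23 regions, 21 lay beyond the upper edge of the gene as placed here and 2 below its lower edge, with no peak between these edges. The promoter region, 18735119 to 18735427, lies within the rounding of the upper edge, so whether it overlaps the gene is not known. The stretch reaches 325 kb beyond the gene and 41 kb below it, so most of it lies upstream by choice. Per 100 kb there were 6.46 regions beyond the gene and 4.88 below it. The stretch was denser than most of the autosomes. Of 6505 autosomal windows of the same length on a fixed grid, 4.63% held at least 23 regions, and the median window held 2. Of the 23 regions, 7 (30.4%) were listed in all 4 libraries, against 20.7% of all regions of the series. Another 5 (21.7%) were listed in 3 libraries, against 15.4% of all regions, and 7 (30.4%) in 2, against 22.2%. A single library listed 4 (17.4%), against 41.7%. At least 1 library of each genotype listed 14 of the 23 (60.9%), against 43.3% of all regions. The stretch was chosen by its calls and the grid windows were not, so nothing is read from its density or from these shares. The 4 regions listed in a single library were 3 of DKO replicate 1, at 102.0, 123.2 and 282.7 kb, and 1 of DKO replicate 2, at 161.3 kb. Distances are from 18.735 Mb, the upper edge of the gene, which is known here only to the nearest kb.

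**Figure D1:**
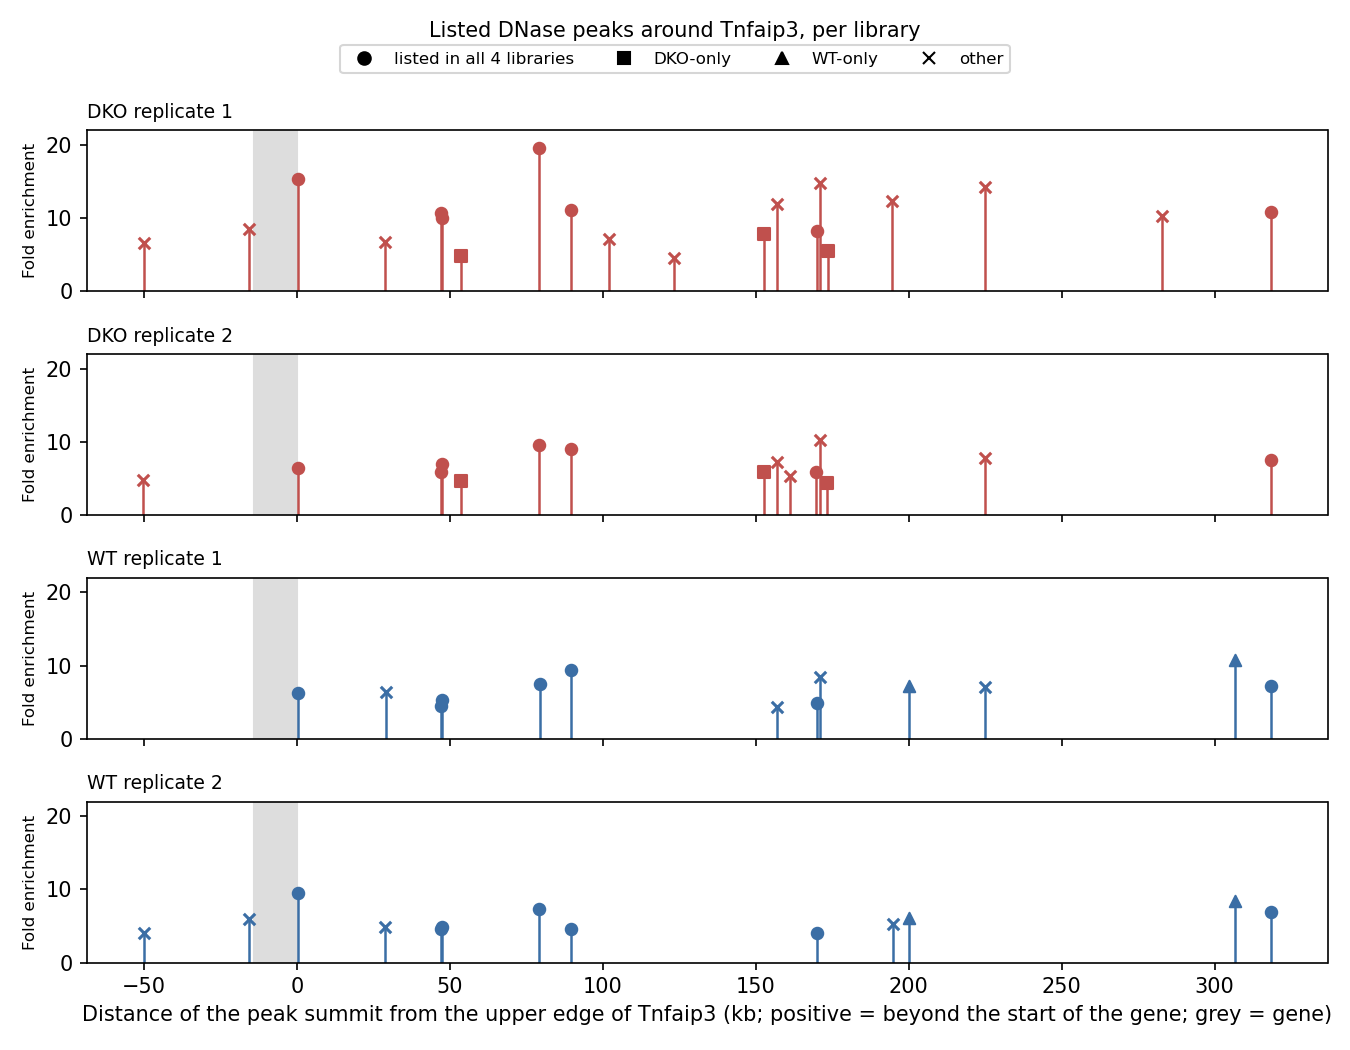
Peaks listed in each library around Tnfaip3, by distance of the summit from the upper edge of the gene (kb) and by fold enrichment within the library. The grey band is the gene, and marker shapes give the class of the region. The WT-only triangles stand at 199.9 and 306.7 kb, and folds reach 19.5 in DKO replicate 1.

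The members nearest the edges of the stretch show what the limits left out. At the upper edge the last site inside was the same in all libraries, 6.53 to 6.59 kb from the limit. Its fold was 10.8 and 7.45 in DKO replicates 1 and 2 and 7.20 and 6.89 in WT replicates 1 and 2. The first peak outside it was 154.4 and 151.7 kb away in DKO replicates 1 and 2 (folds 7.76 and 4.13). In WT replicate 1 it was 16.2 kb away with a fold of 4.36, and in WT replicate 2 it was 158.2 kb away with 5.15. At the lower edge, the first site inside lay 4.80 to 4.89 kb from the limit in both DKO libraries and in WT replicate 2, with folds of 6.62, 4.74 and 4.05. In WT replicate 1 it was the promoter site. The nearest peak outside was 6.33 kb away in DKO replicate 1 (fold 6.28) and 55.8 to 55.9 kb away in the other libraries, with folds of 8.38 in DKO replicate 2 and 6.40 and 4.46 in WT replicates 1 and 2.

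The promoter site, chromosome 10 from 18735119 to 18735427, was listed in all 4 libraries. Its fold was 15.3 and 6.49 in DKO replicates 1 and 2, against 6.22 and 9.47 in WT replicates 1 and 2. The pileups were 56 (95% interval 42.3 to 72.7) and 18 (10.7 to 28.4) fragments in DKO and 20 (12.2 to 30.9) and 32 (21.9 to 45.2) in WT. The replicates of each genotype lay far apart and the genotypes overlapped. The 4 summits fell within 29 bp of each other. In WT replicate 2 the promoter held the highest fold of the stretch. In every other library a distal site was higher.

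Upstream of the promoter, the first 100 kb held 4 more regions that all libraries listed. A pair of them stood 88 bp apart at 47 kb. The region from 18781866 to 18782250 had folds of 10.6 and 5.82 in DKO replicates 1 and 2, against 4.47 and 4.65 in WT replicates 1 and 2. Its neighbour, 18782339 to 18782666, had folds of 10.1 and 6.97 in DKO and 5.24 and 4.91 in WT. At both, each DKO library stood above both WT libraries in fold, but folds come from separate lists and are not compared here as levels. The region at 79.3 kb, 18814178 to 18814403, held the highest fold of the stretch, 19.5 in DKO replicate 1, with 9.51 in DKO replicate 2 and 7.53 and 7.30 in WT replicates 1 and 2. The broadest region lay at 89.7 kb, 18824362 to 18825020, 659 bp wide. Its folds were 11.0 and 9.07 in DKO replicates 1 and 2, against 9.34 and 4.60 in WT replicates 1 and 2.

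At 28.9 kb, 18763786 to 18764030 was listed in 3 libraries, with folds of 6.73 in DKO replicate 1 and 6.40 and 4.87 in WT replicates 1 and 2. DKO replicate 2 had no peak there. Below the gene, 18684740 to 18685033 had folds of 6.62 and 4.74 in DKO and 4.05 in WT replicate 2. The other site below the gene, 18719330 to 18719514, was listed in DKO replicate 1 with 8.49 and in WT replicate 2 with 5.98. No such site below the gene was listed in WT replicate 1.

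A group of 6 regions lay 152.7 to 173.4 kb upstream, within 20.9 kb from 18887616 to 18908485. It was picked out after its values were seen. DKO replicates 1 and 2 listed 5 and 6 of these regions, and WT replicates 1 and 2 listed 3 and 1. The DKO lists are the longer ones, with 88.6% and 53.9% of all regions of the series in DKO replicates 1 and 2 and 44.5% and 28.2% in WT replicates 1 and 2. With lists of equal length, the calls in the group were 3 and 1 in DKO and 1 and 1 in WT. Its strongest member, 18905632 to 18906022, had the highest pileup of the stretch, 74 fragments (58.1 to 92.9) in DKO replicate 1, with 34 (23.5 to 47.5) in DKO replicate 2 and 32 (21.9 to 45.2) in WT replicate 1. WT replicate 2 had no peak there, although it had one 0.649 kb away. The 3 summits fell within 19 bp. At 156.8 kb, 18891676 to 18891923 had folds of 11.9 and 7.23 in DKO replicates 1 and 2 and 4.39 in WT replicate 1. The member at 169.9 kb, 18904765 to 18905005, was listed by all libraries, with folds of 8.30 and 5.92 in DKO and 4.85 and 4.09 in WT. Local background was raised there, at 4.06 and 2.38 fragments in DKO replicates 1 and 2 and 2.92 and 2.91 in WT replicates 1 and 2. The lowest background was 1.23 and 1.15 in the DKO libraries and 1.5 and 1.47 in the WT libraries.

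DKO-only regions, listed in both DKO libraries and neither WT library, numbered 3 of 23 (13.0%), against 14.3% of all regions. The share in the stretch was thus near that of the series. Of these, 2 belonged to the group just described. The region at 152.7 kb, 18887616 to 18887783, had pileups of 27 (17.8 to 39.3) and 13 (6.92 to 22.2) fragments in DKO replicates 1 and 2. That at 173.4 kb, 18908352 to 18908485, had 27 (17.8 to 39.3) and 14 (7.65 to 23.5). The remaining region, at 53.5 kb from 18788462 to 18788590, had 13 (6.92 to 22.2) and 10 (4.80 to 18.4). Ranked by the lower fold of the 2 DKO libraries, 5.84, 4.31 and 4.68, they stood at 2753, 5048 and 4444 among 5429 autosomal DKO-only regions, all below the middle of that class. In each, the DKO summits lay 1 to 27 bp apart. The nearest peak of a WT library was 2.33 to 17.0 kb away. Without DKO replicate 2 or without WT replicate 1 the count was 6. Leaving out a library can raise such a count and cannot lower it. With lists of equal length no region of the stretch was DKO-only, against 5.75% of 18390 regions.

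WT-only regions, listed in both WT libraries and neither DKO library, numbered 2 of 23 (8.70%), against 0.631% of all regions. The site that led to the choice of the stretch is 1 of them, so nothing is read from this share. That site, 19041426 to 19041964, lies 306.7 kb upstream. Its pileup was 30 (20.2 to 42.8) fragments in WT replicate 1 and 20 (12.2 to 30.9) in WT replicate 2, over backgrounds of 1.90 and 1.51. It held the highest fold of the stretch in WT replicate 1, 10.7, and stood at the 90.4th percentile of that list by p. In WT replicate 2 its fold was 8.38, at the 76.0th percentile. The WT peaks were 385 and 370 bp wide, shared 216 bp and had summits 16 bp apart. By its lower fold it ranked 5 among 240 autosomal WT-only regions. Both DKO libraries listed a peak 11.4 kb further upstream and none at the site.

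A missing peak does not give a DKO level of 0. At the lowest background of either DKO library, a peak was listed from 8 fragments up, and more were needed where background was higher. The running numbers in the peak names follow position along each chromosome and have gaps, so some called peaks are not in the lists used here. Missing numbers were counted between the first and last peak of each list in the stretch. In DKO replicate 2 a single number is missing, between its peaks at 18960053 and 19053369. This interval of 93.3 kb contains the WT-only site. WT replicate 2 also lacks 1 number, between its peaks at 18814361 and 18824576. In DKO replicate 1 and WT replicate 1 no number is missing. The position and strength of the unlisted DKO replicate 2 peak are not known, and whether it lay at the WT-only site was not tested.

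Though the rule for the stretch does not name it, the other WT-only region also came from a choice made with the calls known. This region is thus no independent finding. It lies at 199.9 kb, 18934852 to 18935028, with pileups of 17 (9.90 to 27.2) and 14 (7.65 to 23.5) fragments and folds of 7.20 and 6.08 in WT replicates 1 and 2. Its summits were 11 bp apart. It ranked 41 among 240 autosomal WT-only regions by its lower fold. DKO replicate 1 had a peak 5.0 kb below it, with a fold of 12.3, where WT replicate 2 but neither of the remaining libraries also had one. DKO replicate 2 had no peak within 24.9 kb. The WT-only autosomal regions closest to the 306.7 kb site in the folds of the 2 WT libraries, of 239 compared, lay elsewhere. They were chromosome 19, 45870843 to 45871064 (10.2 and 8.60 in WT replicates 1 and 2), chromosome 11, 105306375 to 105306480 (9.82 and 8.88), and chromosome 6, 99436208 to 99436518 (9.27 and 8.10).

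**Figure D2:**
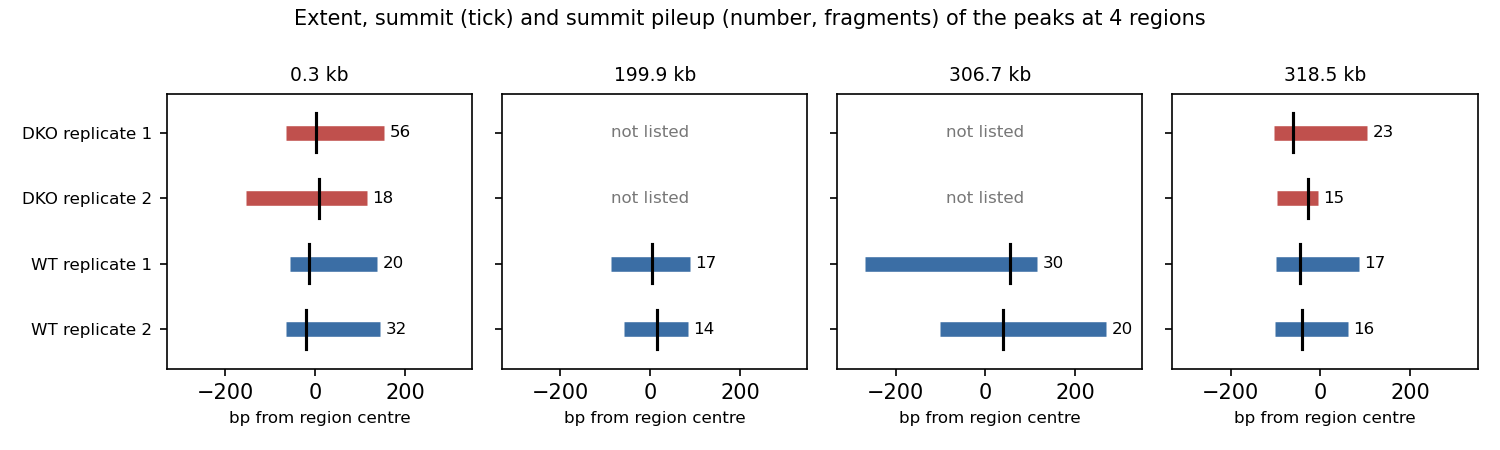
Extent of the peaks in base pairs from the centre of the region, with the summit as a black tick and the summit pileup in fragments, at the promoter (0.3 kb), both WT-only regions (199.9 and 306.7 kb) and the shared region next to the distal one (318.5 kb). DKO libraries are above WT libraries. At 306.7 kb the WT pileups are 30 and 20 and no DKO peak is listed.

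Replicates of 1 genotype also disagreed, and not only at the weakest sites. Of the regions in the stretch, 6 were listed in DKO replicate 1 and not in DKO replicate 2, and 1 in the opposite case. The WT replicates disagreed at 3 regions each way. Of all regions of the series, DKO replicates 1 and 2 listed 88.6% and 53.9%, and WT replicates 1 and 2 listed 44.5% and 28.2%. Lists of such unlike length must disagree at many regions, so nothing about the stretch is read from these counts. At 282.7 kb, 19017613 to 19017699 had 22 fragments (13.8 to 33.3) and a fold of 10.3 in DKO replicate 1, and no other library listed it. At 194.7 kb, 18929567 to 18929854 had 27 fragments (17.8 to 39.3) and a fold of 12.3 in DKO replicate 1 and 12 (6.20 to 21.0) in WT replicate 2 alone. By p these peaks stood at the 55.7th and 67.7th percentile of the DKO replicate 1 list. At 225.1 kb, 18959942 to 18960188 was listed in 3 libraries, with folds of 14.2 and 7.76 in DKO and 7.02 in WT replicate 1, and its summits fell within 7 bp.

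To compare sites between libraries, the 7 regions of the stretch listed in all 4 were ranked by fold among the 8068 such regions of the series. The same regions are ranked in every library. A region is ranked only if every list holds it, so the length of the lists, the shortest above all, still sets which regions enter. Most of the 7 ranked low. Their median percentile was 26.6 and 18.0 in DKO replicates 1 and 2, against 25.5 and 12.6 in WT replicates 1 and 2. The median difference, DKO minus WT, was 5.24 percentile points, against 0.108 over all shared regions. The direction of this median is not stable: it turned to -0.59 points when peaks within 500 bp were joined, which merges the pair at 47 kb. It was 1.72 without DKO replicate 1, 11.2 without DKO replicate 2, 7.90 without WT replicate 1 and 11.9 without WT replicate 2.

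In 2 of the 7 regions both DKO libraries ranked above both WT libraries, against 19.1% of all shared regions. The 47.5 kb region stood at percentiles 20.5 and 18.0 in DKO replicates 1 and 2, against 10.3 and 12.6 in WT replicates 1 and 2. The 169.9 kb region stood at 8.89 and 8.22 in DKO, against 5.93 and 0.700 in WT. These differences of 7.81 and 5.24 points grew to 15.8 and 9.81 when p was ranked in place of the fold. Leaving out each library in turn gave values on both sides of these. The 47.5 kb value ran from 6.79 points without DKO replicate 1 to 11.9 without WT replicate 2. The 169.9 kb value ran from 4.23 without WT replicate 2 to 9.94 without WT replicate 1.

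In 1 of the 7 both WT libraries ranked higher, against 19.0% of all shared regions. This was 19053362 to 19053570 at 318.5 kb, the neighbour of the distal WT-only site. Its percentiles were 26.6 and 23.6 in DKO replicates 1 and 2, against 43.9 and 56.2 in WT replicates 1 and 2, a difference of -25.0 points. The difference ran from -30.1 points without WT replicate 1 to -17.0 without WT replicate 2. The pileups behind these percentiles were close, 23 (14.6 to 34.5) and 15 (8.40 to 24.7) fragments in DKO and 17 (9.90 to 27.2) and 16 (9.15 to 26.0) in WT. The promoter, at 68.8 and 13.3 in DKO and 25.5 and 90.6 in WT, overlapped between the genotypes, as did the regions at 47.1, 79.3 and 89.7 kb. The shares of 28.6% and 14.3% rest on 2 regions and 1 region and were near those over all shared regions.

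**Figure D3:**
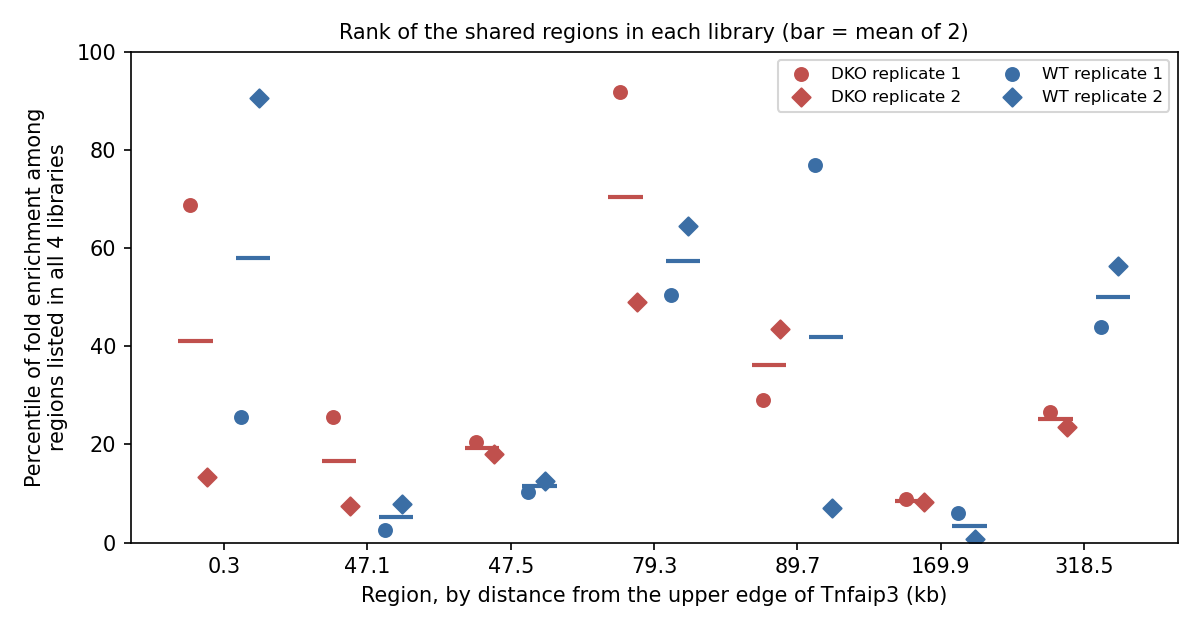
Percentile of the fold enrichment of each of the 7 shared regions around Tnfaip3 among the 8068 regions listed in all 4 libraries, by distance from the upper edge of the gene (kb). Points are libraries and bars the mean of 2. DKO points lie above WT points at 47.5 and 169.9 kb and below them at 318.5 kb.

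The summits of the 7 shared regions spread over 29 to 156 bp between libraries, with a median of 108 bp, against a median of 44 bp over all shared regions. The promoter had the smallest spread and the 47.1 kb region the largest. The median width of the peaks in these regions was 241 and 270 bp in DKO replicates 1 and 2, against 207 and 199 bp in WT replicates 1 and 2. Over all peaks of the stretch this order did not hold. The median width was then 214.5 and 112 bp in DKO replicates 1 and 2, against 196 and 180 bp in WT replicates 1 and 2.

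With lists of equal length, 4 of 16 regions of the stretch were WT-only, against 4.61% of all regions. Both regions that were WT-only over the full lists were among them. The others were the 28.9 kb region, which DKO replicate 1 listed over its full length, and the 318.5 kb region, which both DKO libraries listed. Equal length removed DKO peaks with a −log10 p under 27.3 in replicate 1 and under 13.6 in replicate 2. In WT replicate 1 the limit was 10.8, and WT replicate 2 kept every peak down to 5.40. The limits were thus not equal for the genotypes.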

How the data were processed

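DNase-seq peak lists of 4 libraries, 2 DKO and 2 WT, were used as the authors deposited them, with genotype and replicate number from the sample titles. The submitters' processing notes name Bowtie2 2.2.5, FastQC, MACS2 2.1.1 and the build mm9. Caller settings, any control library and the handling of duplicates were not given in the sources used here. Each deposited peak has a fold enrichment, a ratio to local background, a −log10 p, a −log10 q, a score of 10 times the −log10 q and a summit offset. The smallest deposited fold was just above 4 in each list, and 871 to 1530 running peak numbers were missing per list. Read totals were not used here, so depth is unknown and only shows in the background.

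Positions were converted to count from 1. The pileup and background that give both fold and p under MACS2's formulas were solved for peaks with a −log10 p under 250, and 100% came out whole within 0.02. The solution and the joining of regions were tested on simulated data. Regions were classed by the lists that had a peak in them, over the whole genome. Named are all regions of the stretch: the promoter, WT-only, DKO-only and shared regions in full, the others more briefly. The members, lists and rules were chosen with earlier results of these data known. Promoter sequences and gene order come from RefSeq, GRCm38.p6, matched by symbol. No mm9 annotation was used, so calls at pathway and marker genes were not analysed here. Python 3.11.15, pandas 2.3.3, numpy 2.4.6, scipy 1.17.1 and matplotlib 3.10.9 were used.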

Additional observations from a re-analysis of the deposited data

How the results depend on the processing

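Both WT peaks of the site at 306.7 kb were kept at a −log10 q of at least 5 and 10 and at equal list length. These settings only remove peaks, so the lack of DKO peaks there was fixed in advance and supports nothing. Joining peaks within 500 bp could not bring in a DKO peak either, since the nearest lay 11.4 kb away. Leaving out each library gave a difference of 1 to 2 lists there. The log2 ratio of peak numbers kept its direction in 7 of 8 settings, from 0.21 to 1.51. It turned to -0.65 at equal list length, the only setting that evens out the lists. Both DKO counts were above both WT counts, so leaving out a library could not turn it. Counting any overlap with the stretch gave the same peak numbers. The 7 settings are thus no sign of stability. The 3 DKO-only regions stayed within 1.5 times of that count under 5 of 10 settings. They numbered 1 at a −log10 q of at least 10, 0 at equal list length, 5 where a peak had to cover at least 50% of the region, and 4 to 6 without each library. WT-only regions, 2 of them, became 1 at a −log10 q of at least 10 and 4 at equal list length, and stayed within 1.5 times in 8 of 10 settings. Regions listed in all 4 libraries, 7 of them, became 4, 0 and 2 at a −log10 q of 5, of 10 and at equal list length, and 4 with the 50% cover. At equal list length these were 2 of 16 regions (12.5%), against 5389 of 18390 in the series. There the stretch had the lower share, while the full lists gave it the higher, 30.4% against 20.7%. The median rank difference of 5.24 became -0.59 when peaks within 500 bp were joined, which merges the pair at 47 kb, and ranged from 1.72 to 11.9 without each library. For the change of filter or length, fewer peaks enter. No paired analysis was possible because the calls come from no test, and fits with a replicate block do not apply to them. The peaks of the stretch rest on pileups of 9 to 74 fragments, and a missing call says only that a site did not reach its list.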

Other observations

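Of 22 NF-κB pathway genes listed with Tnfaip3 in mind, 17 had a RefSeq promoter window. GGNNTTTCC was found in 6 of the 17, Bcl3, Cyld, Nfkb2, Nfkbia, Rel and Traf2, against 6.62% of the 27025 genes with a window. Nfkbia encodes the inhibitor that holds NF-κB in the cytoplasm, Cyld a deubiquitinase that acts beside A20, and Nfkb2 and Rel encode NF-κB subunits. CTTTGAT was found in 0 of the 17, against 4.29% of genes. Accessibility at these promoters was not analysed here.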
